A study of Homo sapiens with 6 samples.

Results

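The 10 genes described here are the receptors EGFR, ERBB2 and ERBB3, the ligands AREG, EREG, HBEGF and TGFA, and the ERK feedback genes DUSP6, SPRY2 and SPRY4. They were taken by gene symbol, 1 row each, from the 40205 genes of the count table. RNA-seq had been run on cells labelled HepG2, a line derived from a human liver tumour, in 6 samples. The control group (Control-1 to Control-3) was cultured without CLs, and the CLs-treated group (CLs-1 to CLs-3) was exposed to CLs for 24 h, at 120 μM by the sample labels, a figure that the study's text gives in μg/ml as well. CLs are cationic liposomes, made here of the cationic lipid DOTAP, cholesterol and a PEG-bearing lipid. All samples shared the same serum-containing culture medium. The study asked which genes change when such cells meet a toxic dose of CLs. The study's text calls the samples independent without saying whether those of a group came from separate cultures. The p-values measure only the spread between these samples, which may be technical.

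EGFR is a receptor tyrosine kinase of the cell surface, and binding of a ligand pairs it with another receptor of its family. The ligands are made as membrane-anchored precursors and are released by proteases of the ADAM family. Receptor pairs recruit the adaptors GRB2 and SHC1 and, through them, the exchange factor SOS. SOS loads RAS with GTP and so starts the RAF, MEK and ERK kinases. Active ERK induces its own inhibitors, among them the phosphatase DUSP6 and the Sprouty proteins, and their mRNA levels are widely used to read out ERK activity. In liver, EGFR and its ligands are known for their part in regeneration after injury.

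The totals on genes ran from 11418527 to 13998946 reads per sample. Values are given as CPM, the counts of a gene per 1000000 reads of its library after TMM scaling. At 3 counts, the floor used here for what the depth can show (counting error only), CPM was 0.208 to 0.263. The libraries did not show the markers of the labelled cell line. Of 18 hepatocyte and HepG2 markers, 14 had at most 3 counts in every library other than CLs-1, and ALB had 0 counts in 5 libraries and 8 in CLs-1. The summed counts of the 18 markers were 13 to 36 in the 5 libraries and 198 in CLs-1, and TTR had 0 in all 6. KRT8, a keratin of simple epithelia, had 17452 to 26398 counts in the control samples and 9024 to 11542 in the CLs-treated samples, and the collagen gene COL3A1 had 7456 to 11358 over the 6 libraries. CLs-1 also held reads that the others lacked. Its counts were 1044 for COL1A2, 324 for HBB and 290 for STAR, whereas no other library exceeded 2, 4 and 3.

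All 3 CLs-treated samples had less EGFR than any control sample, with a mean of 0.650 times that of the controls, but it did not pass the adjusted test. None of the 8 members with enough reads to be tested was called by edgeR's quasi-likelihood test with the thresholds of the study, an adjusted p-value under 0.05 with a fold above 1.5 or below 0.67. By this rule 0.0864% of the 15047 tested genes were called. At an unadjusted p-value under 0.05 there was 1 member, EGFR, against 5.81% of all tested genes, and DESeq2's Wald test called the same gene and no other member, against 0.711% of all tested genes. The groups did not overlap in 1 of the 8 tested members, against 11.5% of tested genes. AREG and TGFA had too few reads to enter these tests. In such bulk samples, fewer cells that express a gene and less RNA of it per cell cannot be told apart.

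The levels of the members spanned a wide range. Per kilobase of merged exon, EGFR had 72.7 CPM in the control group and 47.3 in the CLs-treated group. ERBB2 came next, with 17.2 and 13.8 CPM per kilobase. SPRY2, HBEGF and DUSP6 followed in the control group with 3.94, 2.15 and 1.20 CPM per kilobase, and the ranges of HBEGF and DUSP6 over the control samples overlapped. SPRY4, ERBB3 and EREG lay close together at 0.336, 0.255 and 0.219 CPM per kilobase in the control group, with overlapping ranges. TGFA and AREG were lowest in the mean, at 0.114 and 0.0463 CPM per kilobase, and their ranges overlapped as well. The control range of TGFA, 0.0543 to 0.144, also overlapped that of EREG, 0.0928 to 0.395. In the CLs-treated group EREG, at 0.506, stood above SPRY4 and ERBB3 in the mean, but this rested on CLs-1, at 1.06 against 0.0936 and 0.360 in CLs-2 and CLs-3. Without CLs-1 the means were 0.227 for EREG, 0.272 for SPRY4 and 0.234 for ERBB3.

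**Figure D1:**
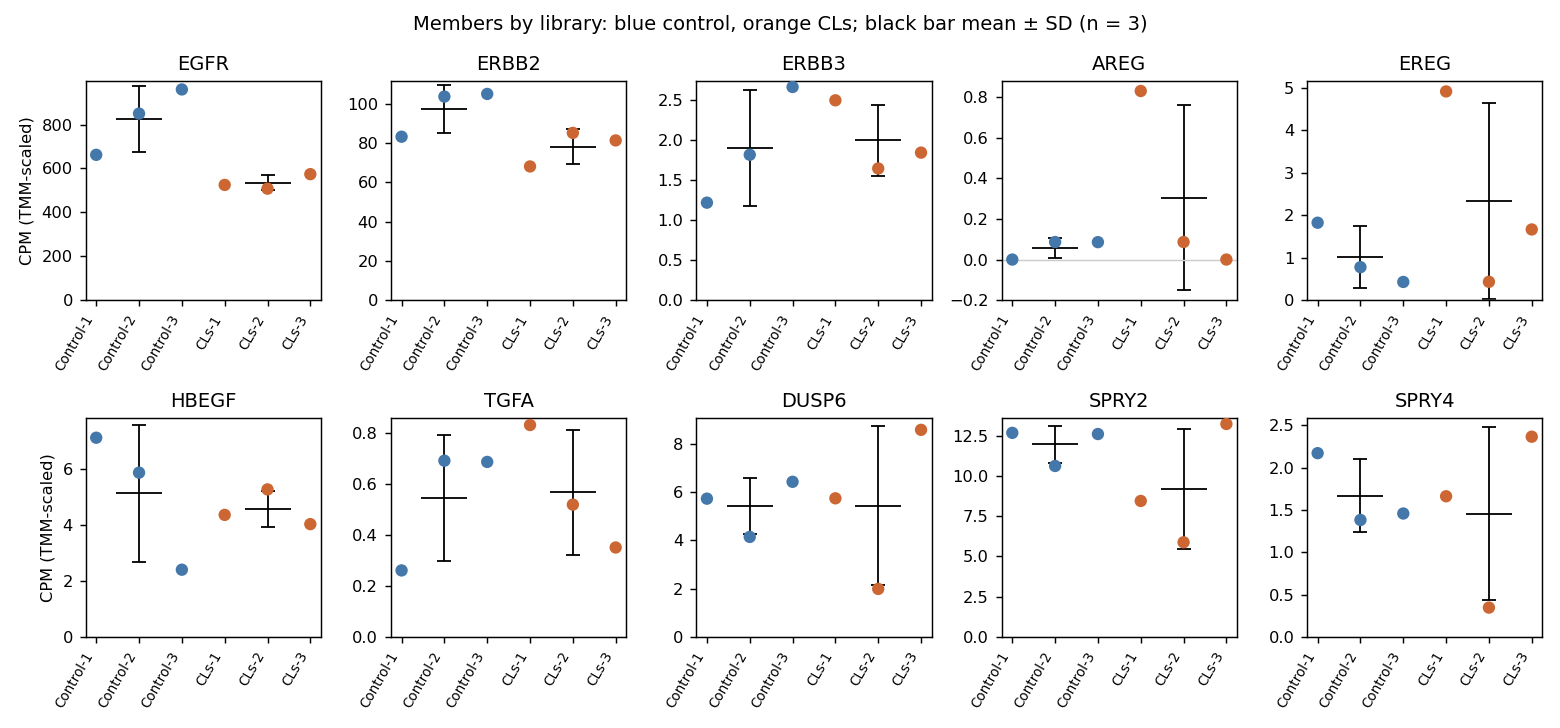
Expression of the 10 members in each library, with CPM on the y axis of each panel, blue points for control and orange points for CLs-treated samples, and a black bar for the mean with its SD over 3 samples. EGFR is the 1 member whose groups do not overlap, and DUSP6, SPRY2 and SPRY4 are lowest in CLs-2.

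EGFR, the receptor for all 4 ligands among the members, had 662, 849.9 and 960.0 CPM in Control-1 to Control-3, and 525, 508 and 574 CPM in CLs-1 to CLs-3. All 3 CLs-treated samples thus lay below the lowest control sample, Control-1, and within a narrower range than the controls. The means were 824 ± 151 and 536 ± 34.3 CPM (SD, n = 3 in each group). The log2 fold change was -0.62 (standard error 0.16, 95% interval -0.97 to -0.27) and the adjusted p-value in edgeR was 0.284. An exact two-sided permutation test gave p = 0.10, the smallest that 3 samples against 3 allow. Run on every gene with a read, edgeR called 171 of 25432 genes, EGFR among them (adjusted p = 0.0436). EGFR also passed with DESeq2 (adjusted p = 0.0281). Over all alternatives its adjusted p-value ran from 0.0281 to 0.788, and its log2 fold change from -0.76 to -0.50. The sum of the epithelial markers did not overlap between the groups either. The summed level of 8 such markers was 5770 to 6377 CPM in the control samples and 2629 to 3492 CPM in the CLs-treated samples, almost all of it from the keratins KRT7, KRT8 and KRT18. Of the defining markers, EPCAM had 0 to 7 counts and CDH1 0 to 9 per library, and KRT5 and KRT13 had at most 3 in any library. KRT19 had 3, 9 and 19 counts in the control samples and 61, 3 and 1 in the CLs-treated samples, with the 61 in CLs-1. The part of these markers in the EGFR result was not tested.

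ERBB2 has no known ligand of its own and is the favoured partner of the other receptors. Its levels were 83.2, 103.6 and 105.0 CPM in the 3 control samples and 68.1, 85.1 and 81.3 CPM in the 3 CLs-treated samples. Control-1 lay within the CLs-treated range, so that the groups overlapped. Its log2 fold change was -0.32, with a 95% interval of -0.64 to 0.01 and an adjusted p-value of 0.863 in edgeR. The ratio of EGFR counts to ERBB2 counts within a library was 7.96, 8.20 and 9.15 in the control samples and 7.72, 5.97 and 7.06 in the CLs-treated samples. This ratio needs no scaling between libraries. Its groups did not overlap, with the nearest values at 7.96 in Control-1 and 7.72 in CLs-1. It holds the same EGFR counts as above and is no separate evidence, and the share of other gene ratios that separate was not counted.

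ERBB3, which binds neuregulins and signals mainly through its partners, was measured at low depth. It had 14, 21 and 31 counts in the control samples and 36, 19 and 21 counts in the CLs-treated samples. The highest counts of each group came from Control-3 and CLs-1. With a log2 fold change of 0.08 and a 95% interval of -0.71 to 0.86, both fold criteria lay inside the interval. It was -0.12 without CLs-1. ERBB4, the remaining receptor of the family, had 5 to 11 counts per library and was not tested.

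**Figure D2:**
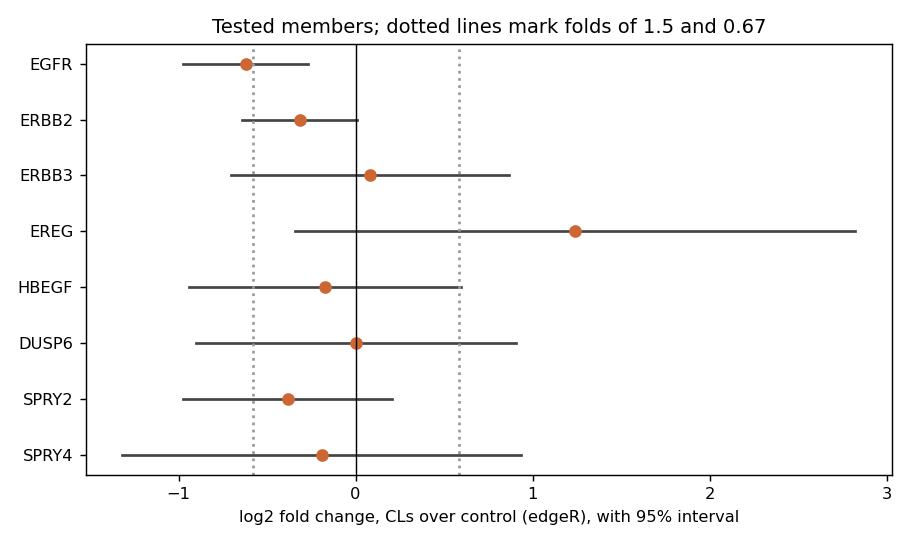
Log2 fold change of the 8 tested members on the x axis, CLs-treated over control, with points for the edgeR estimate, bars for the 95% interval and dotted lines at folds of 1.5 and 0.67. The interval of EGFR, -0.97 to -0.27, lies below 0, and those of the other 7 members include 0.

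Of the 4 ligand members, HBEGF was the most deeply measured. NRG1 and NRG4, ligands outside the members, had higher control means, at 17.5 and 14.3 CPM against 5.13 for HBEGF. HBEGF is released from its precursor by shedding and binds EGFR and ERBB4. It had 7.12, 5.87 and 2.40 CPM in the control samples and 4.36, 5.27 and 4.03 CPM in the CLs-treated samples. The spread came from the control group, in which Control-3 was lowest, and the CLs-treated samples lay within the control range. On the log2 scale the fold change of HBEGF was -0.17 (95% interval -0.94 to 0.60, edgeR adjusted p = 0.998).

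EREG, a ligand of EGFR and ERBB4, had 21, 9 and 5 counts in the controls. Its counts were 71, 5 and 19 in the CLs-treated samples, in the order CLs-1 to CLs-3. CLs-1 was high, and the other CLs-treated samples lay within the control range. EREG had a log2 fold change of 1.24, with a 95% interval of -0.34 to 2.82 and an adjusted p-value of 0.930 in edgeR, and 0.05 without CLs-1. CLs-1 is also the library with the marker reads named above, and their part in its EREG reads was not tested.

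AREG, a ligand that binds EGFR alone, was at the floor in 5 libraries. It had 0, 1 and 1 counts in the control samples and 12, 1 and 0 in the CLs-treated samples, the 12 being in CLs-1. AREGB, a near-identical copy listed on its own row, had 3 counts in CLs-1 and 0 or 1 elsewhere, so that reads could have been split between them. TGFA, the ligand first known from transformed cells, had 3, 8 and 8 counts in the control samples and 12, 6 and 4 in the CLs-treated samples. Its groups overlapped. The 4 ligands together made up 9.20, 7.43 and 3.60 CPM in the control samples and 10.9, 6.31 and 6.05 CPM in the CLs-treated samples, so that CLs-1 alone lay above the control range.

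In the fit with condition as the single term, the feedback members showed no common shift between the groups, but they were lowest in the same library. DUSP6, the cytoplasmic phosphatase that removes the activating phosphates from ERK, had 5.73, 4.14 and 6.43 CPM in the control samples. Its CPM was 5.75, 1.99 and 8.59 from CLs-1 to CLs-3. Both the lowest and the highest of the 6 values thus came from the CLs-treated group. The means were 5.44 ± 1.17 and 5.44 ± 3.31 CPM (SD, n = 3 in each group). For DUSP6 the log2 fold change was 0.0015, with a 95% interval of -0.90 to 0.91. It was -0.04 without CLs-1, 0.39 without CLs-2 and -0.47 without CLs-3, and none of these fits called DUSP6.

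SPRY2, a Sprouty protein that restrains signalling from growth factor receptors to ERK, had 12.7, 10.6 and 12.6 CPM in the control samples and 8.45, 5.88 and 13.2 CPM in the CLs-treated samples. CLs-1 and CLs-2 lay below all controls, and CLs-3 above them. SPRY2 had a log2 fold change of -0.38 (95% interval -0.98 to 0.21, edgeR adjusted p = 0.967), and -0.15 without CLs-2. Without CLs-3 it was -0.73, with an unadjusted p-value of 0.0142 and an adjusted p-value of 0.725 in edgeR, and it was not called. SPRY4, its close relative, had 25, 16 and 17 counts in the control samples and 24, 4 and 27 counts in the CLs-treated samples. CLs-2 alone stood out, with CLs-1 within the control range and CLs-3 above it. The log2 fold change of SPRY4 was -0.19 (95% interval -1.32 to 0.94). It was -0.30 without CLs-1, 0.26 without CLs-2 and -0.68 without CLs-3. Summed over the 3 feedback members, CPM was 20.6, 16.1 and 20.5 in the control samples and 15.9, 8.21 and 24.2 in the CLs-treated samples.

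The upstream sequences are shown for the 3 feedback members, because they were lowest in the same library, and for EGFR, because its groups did not overlap. Each window covers 250 bases before to 50 bases after the start of transcription, from RefSeq on build GRCh38.p14, and 9 of the 10 members had one. Where a gene had several windows, the most upstream was taken. They lie at chr7:55018767-55019066 (+ strand) for EGFR, chr12:89352452-89352751 (- strand) for DUSP6, chr13:80341077-80341376 (- strand) for SPRY2 and chr5:142324198-142324497 (- strand) for SPRY4. Capitals mark GGAA or its complement TTCC, the core that ETS factors, a family acting downstream of ERK, recognise. Each sequence is written 5′ to 3′ on the strand of its gene.
EGFR: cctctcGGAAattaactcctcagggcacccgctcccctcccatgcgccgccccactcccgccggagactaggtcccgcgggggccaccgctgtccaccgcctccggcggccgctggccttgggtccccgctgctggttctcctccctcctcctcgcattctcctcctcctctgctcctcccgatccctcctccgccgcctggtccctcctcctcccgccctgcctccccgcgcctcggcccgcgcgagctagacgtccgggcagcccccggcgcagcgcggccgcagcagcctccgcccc
DUSP6: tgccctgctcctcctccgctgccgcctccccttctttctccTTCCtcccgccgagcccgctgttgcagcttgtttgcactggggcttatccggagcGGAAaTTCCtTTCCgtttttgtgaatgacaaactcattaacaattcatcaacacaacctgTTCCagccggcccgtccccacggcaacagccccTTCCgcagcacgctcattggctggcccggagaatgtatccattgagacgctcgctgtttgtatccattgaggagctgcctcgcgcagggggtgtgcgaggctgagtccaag
SPRY2: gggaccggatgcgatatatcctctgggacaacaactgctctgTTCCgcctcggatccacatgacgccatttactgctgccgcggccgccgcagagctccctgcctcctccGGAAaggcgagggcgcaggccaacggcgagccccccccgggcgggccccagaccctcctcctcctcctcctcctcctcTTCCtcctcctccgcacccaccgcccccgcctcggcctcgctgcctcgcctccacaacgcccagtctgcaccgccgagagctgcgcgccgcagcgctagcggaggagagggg
SPRY4: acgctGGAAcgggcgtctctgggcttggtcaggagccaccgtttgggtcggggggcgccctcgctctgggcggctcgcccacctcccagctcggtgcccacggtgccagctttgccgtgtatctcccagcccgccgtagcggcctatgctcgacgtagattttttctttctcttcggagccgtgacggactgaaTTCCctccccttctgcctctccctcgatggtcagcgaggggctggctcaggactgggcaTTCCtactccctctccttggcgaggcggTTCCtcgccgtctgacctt

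The core occurred 6 times in the window of DUSP6, 3 times in that of SPRY2, 4 times in that of SPRY4 and once in that of EGFR. It is common, with at least 1 match on either strand in 95.5% of 35116 windows and a median of 3. The longer ETS site CCGGAA, which contains the core, was found in the window of SPRY2 and in 17.2% of all windows. None of the 4 windows held the AP-1 site TGANTCA, the CRE site TGACGTCA or the TATA box TATAAA, on either strand, which occurred in 7.71%, 1.85% and 11.5% of all windows. EGFR, SPRY2 and SPRY4 held the GC box GGGCGG, as did 45% of all windows, and DUSP6 did not. These are matches of letters in a short window and not sites shown to be bound.

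The low values of CLs-2 extended to other genes of the same roles. A list of 10 further feedback genes and 14 genes induced by ERK was read from the same fit, and with the 3 feedback members 25 of these 27 genes were tested. CLs-2 was the lowest of the 6 libraries in 18 of the 25, against 18.9% of all tested genes. The 18 include the 3 feedback members, in which the low values were first seen. Of the further genes, CLs-2 was lowest in 6 of the 9 tested feedback genes and 9 of the 13 tested genes induced by ERK. The exceptions were DUSP4, DUSP9 and SPRED3 among the former and EGR1, FOSL1, PLAUR and SPHK1 among the latter. Some gaps were small, as in FOS, at 4.93 CPM in CLs-2 and 4.95 in Control-1. Among the 3 CLs-treated libraries CLs-2 was lowest in 22 of the 25, against 32.0% of all tested genes. Control-2 was the lowest of the 3 control libraries in 20 of the 25, against 23.3% of all tested genes. For the 19 adaptors, RAS genes and kinases above ERK, CLs-2 was the lowest of the 6 libraries in 5. This pattern was noticed after the values had been seen, and these counts are a description of the libraries. The total of CLs-2 was 11696743 counts and its TMM factor 0.991, both within the range of the other libraries.

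Some of these genes were picked for the size of the gap after their values were seen. ETV5, an ETS factor whose mRNA follows ERK activity, had 27.1, 15.5 and 31.4 CPM in the control samples and 19.7, 7.69 and 33.2 CPM in the CLs-treated samples. Its relative ETV4 had 28.1, 14.4 and 26.9 CPM and then 22.6, 9.68 and 45.1 CPM. CCND1, the gene of cyclin D1, had 113.4, 71.4 and 109.4 CPM and then 73.2, 39.8 and 110.8 CPM. SPRED1, a RAS inhibitor related to the Sprouty proteins, had 9.20, 7.34 and 9.43 CPM and then 7.68, 2.77 and 7.27 CPM. In all 4 genes Control-2 was the lowest control and CLs-2 the lowest library, whereas CLs-3 was above the highest control in ETV4 and ETV5 and within the control range in CCND1, and at 7.27 CPM below the lowest control in SPRED1.

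**Figure D3:**
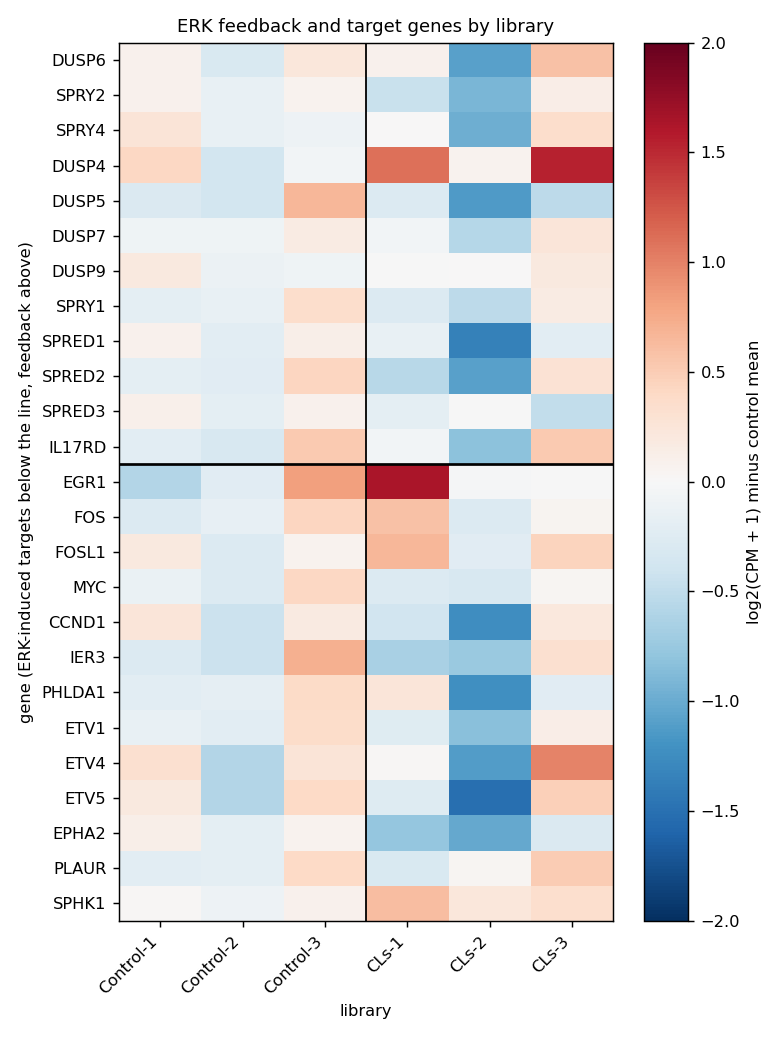
Tested ERK feedback genes (above the line) and ERK-induced targets (below it) in rows and the 6 libraries in columns, with colour for log2(CPM + 1) minus the mean of the control samples. CLs-2 is the lowest of the 6 libraries in 18 of the 25 genes, the 3 feedback members included, and Control-2 the lowest control in 20 of the 25.

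Over the whole pathway, 61 further genes were read by role from the same fit, and 56 had enough reads to be tested. None was called by edgeR's quasi-likelihood test, against 0.0864% of all tested genes. An unadjusted p-value under 0.05 was found for 4 of the 56, against 5.81% of all tested genes. DESeq2's Wald test called 1, EPGN, against 0.711% of all tested genes. Their median log2 fold change was 0.0055, beside 0.010 over all tested genes. The groups did not overlap in 3 of the 56, against 11.5% of all tested genes, and these were EPGN, EPHA2 and SPHK1.

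EPGN, the EGFR ligand epigen, had 21, 19 and 12 counts in the control samples and 83, 24 and 93 in the CLs-treated samples. All CLs-treated samples were above the controls, CLs-2 by the smallest margin, at 2.07 CPM against 1.82 in Control-1. For EPGN the log2 fold change was 1.82 (standard error 0.46, edgeR adjusted p = 0.260). The adjusted p-value was 0.0223 with DESeq2 and 0.00294 in edgeR with no filter, and it reached 0.662 when single samples were left out. Without CLs-1 the log2 fold change was 1.76. The other ligands tested, EGF, NRG1, NRG2 and NRG4, had log2 fold changes between -0.32 and 0.86, and BTC and NRG3 had at most 3 counts in any library.

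EPHA2, an ephrin receptor whose gene is induced by ERK, had 190.1, 152.4 and 184.1 CPM in the control samples and 101.3, 85.5 and 142.4 CPM in the CLs-treated samples. Its log2 fold change was -0.68 (standard error 0.19, edgeR adjusted p = 0.327), and all CLs-treated samples were below all controls. Their sum of epithelial markers, almost all of it from KRT7, KRT8 and KRT18, was below all controls too. The part of these keratins here was not tested either. EPHA2 was called only when edgeR tested every gene with a read, at an adjusted p-value of 0.0352, among alternatives that ran up to 0.819. SPHK1, a sphingosine kinase, had 10.6, 9.58 and 11.1 CPM and then 16.5, 12.3 and 13.3 CPM, a log2 fold change of 0.43 (adjusted p = 0.832 from the same test) that was 0.30 without CLs-1, with an unadjusted edgeR p-value of 0.121.

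DUSP4, a nuclear phosphatase of ERK and the remaining gene with an unadjusted p-value under 0.05, had 9.03, 4.84 and 6.17 CPM in the control samples. It had 15.0, 6.83 and 20.8 CPM in the CLs-treated samples, of which CLs-2 lay within the control range. The log2 fold change of DUSP4 was 1.09 (standard error 0.36, edgeR adjusted p = 0.553). It was called in edgeR with no filter, at an adjusted p-value of 0.0329, among alternatives that ran up to 1.00. Its direction was opposite to that of SPRY2, and a difference between the feedback genes was not tested.

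The genes between receptor and ERK showed small differences. The 11 adaptors, RAS genes and RAS regulators had log2 fold changes between -0.15 and 0.13, 6 above 0 and 5 below. The 8 genes of the kinase cascade, ARAF to MAPK3, lay between -0.09 and 0.20, 4 above 0 and 4 below. The 10 genes of shedding and receptor control, among them ADAM17, which releases most EGFR ligands, and ERRFI1, which inhibits EGFR, lay between -0.25 and 0.35, 7 above 0. None of these 29 genes had an unadjusted p-value under 0.05, against 5.81% of all tested genes, or groups that did not overlap, against 11.5%.

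**Figure D4:**
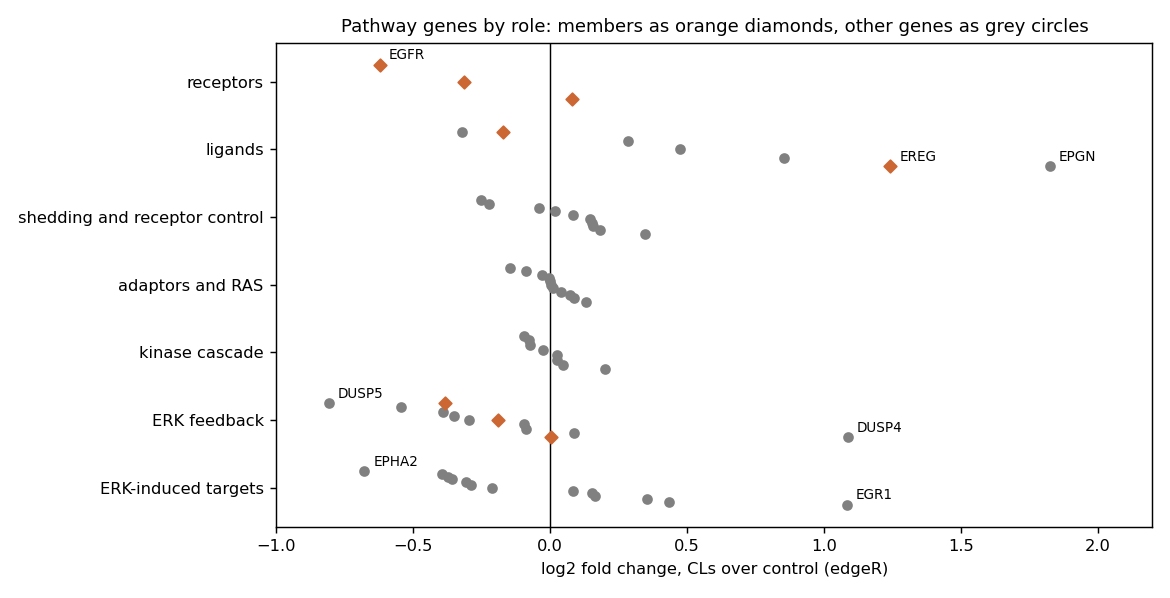
Log2 fold change of every tested pathway gene on the x axis, CLs-treated over control, in rows by role, with orange diamonds for members and grey circles for other genes. The genes from adaptors to kinases lie between -0.15 and 0.20, and the spread is wider among ligands, feedback genes and ERK-induced targets.

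The genes whose log2(CPM + 1) followed a member most closely over the 6 samples were listed for the 3 members with the smallest p-values. For EGFR they were NYAP2, HERPUD2 and SDPR, with Pearson correlations of 0.997, 0.996 and 0.992. For ERBB2 they were BMP2, FAM20C and FCHO1, at 0.994, 0.993 and 0.988, and for EREG they were TERF1P5, WDR3 and LOC100422300, at 0.990 each. Of 15046 genes compared, 68, 43 and 58 exceeded 0.95 with EGFR, ERBB2 and EREG. All points share the same 6 libraries, and such values are a description only.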

How the data were processed

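The authors mapped filtered single-end Ion Proton reads with MapSplice and deposited whole-number counts per gene symbol that were not normalized. The submitters' processing notes also name HTSeq 0.6.1 and the builds hg19 and GRCh37, with no roles. How reads matching several places and the strand were treated is not given in the sources used here. All 6 columns were used, and none was left out.

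The count test was the quasi-likelihood F test of edgeR 4.0.16 (R 4.3.3), with condition as the single term. Low genes were set aside by filterByExpr, leaving 15047 genes, and libraries were scaled by TMM, with Benjamini-Hochberg adjustment over all tested genes. The paper's EBSeq was not run. The fold change criteria, above 1.5 or below 0.67, were the paper's. Standard errors and 95% intervals were derived from the F statistic. The script was tested on simulated data in which changes were put only into well-read genes. That test does not cover members with few counts, AREG, TGFA, ERBB3, EREG and SPRY4. Alternatives were DESeq2 1.42.0, RLE, upper-quartile or no scaling factors, no filter or a stricter one, calls by adjusted p alone, a block for the replicate number, and fits that left out single samples.

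The members and lists were chosen with earlier results of these data known. All members were named, and of the other pathway genes those called or with groups that did not overlap, at most 3 per role by smallest p. Genes outside this rule are said to be picked later. Merged exon lengths came from the GENCODE annotation, and upstream windows from RefSeq. The totals of 11418527 to 13998946 counts per sample set the precision of low genes.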

Additional observations from a re-analysis of the deposited data

How the results depend on the processing

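The number of genes called over the whole table was 13 of 15047. It was 107 of 15045 with DESeq2 and 171 of 25432 with no filter on low counts. With library totals only it was 8, and 3 to 7 when a sample was left out. None of the 8 tested members was called, with 1 of 8 called (EGFR) by DESeq2 and 1 of 10 (EGFR) with no filter. None of the 56 other pathway genes tested was called, with 1 of 56 called by DESeq2 and 3 of 60 with no filter. Of 112 alternative values of the members' log2 fold changes, 9 changed sign, in DUSP6, ERBB3, HBEGF and SPRY4. The 112 include the calls by adjusted p alone, which keep the fold changes of the main fit and could not change a sign. When a sample was left out, the log2 fold change of DUSP6 ran from -0.47 to 0.39, that of ERBB3 from -0.16 to 0.40, that of HBEGF from -0.51 to 0.14, that of SPRY2 from -0.73 to -0.15 and that of SPRY4 from -0.68 to 0.26. That of EREG ran from 0.05, without CLs-1, to 1.97, without Control-1, and kept its sign. The cause of these changes was not tested. AREG and TGFA had too few counts for the main fit. In edgeR with no filter their log2 fold changes were 2.32 and 0.09, with adjusted p-values of 0.885 and 0.993. AREG had 12 counts in CLs-1 and 0 or 1 in each other library. ERBB3, EREG and SPRY4 had few counts in most libraries.

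The samples of the 2 groups share replicate numbers in the labels, but nothing says that a number marks a shared culture or day. The correlation of deviations from the group means between same-numbered samples was 0.0998, 0.122 and 0.333, so that 2 of the 3 pairs exceeded 0.1. All 6 samples correlated best with their own number, a hint from the data and not the design. Some margins were small: Control-1 had 0.0998 with CLs-1 and 0.0787 with CLs-2, and CLs-1 had 0.0850 with Control-2. Deviations sum to 0 within a group, so the 6 matches are not independent. With the replicate number as a block, 68 genes were called, and no member and no other pathway gene was. At an unadjusted edgeR p-value under 0.05 there were then 3 of the 8 members, 9 of the 56 other pathway genes and 1181 of all 15047 tested genes. Without the block these numbers were 1, 4 and 874. The adjusted p-value of EGFR in edgeR was 0.142 with the block. The log2 fold changes of DUSP6, SPRY2 and SPRY4 were then -0.12, -0.44 and -0.31, all below 0, with edgeR adjusted p-values of 0.976, 0.677 and 0.953.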
